A study of Arabidopsis thaliana with 9 samples.

Results

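TRY (TRIPTYCHON, locus AT5G53200 on chromosome 5) encodes a small MYB protein of Arabidopsis thaliana that represses the formation of trichomes, the hairs of the leaf surface. It was taken as the probe set that names exactly TRY in the array's probe-to-gene annotation. This was 1 probe set, 248246_at, and TRY was 1 of 13356 genes named by a probe set of their own. The gene was picked with its signals on these arrays already known, so its levels are given as a description with no test.

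The arrays were Affymetrix arrays of whole seedlings, 9 in all, with 3 biological replicates in each of 3 groups. Wild type was untransformed, the OsSAP11 line was transgenic line 22 expressing the rice gene OsSAP11, and the OsRLCK253 line was transgenic line 25 expressing the rice gene OsRLCK253. The first encodes a stress-associated protein with A20 and AN1 zinc fingers and the second a receptor-like cytoplasmic kinase, and the study compared seedlings that express them with untransformed ones. All plants had the ecotype label col 1, were 21 days old, received no treatment and grew without antibiotic selection. Each rice gene is represented by 1 line, so the transgene and the line cannot be told apart, and the promoter that drives it is not given in the sources used here. Of 22810 probe sets, 64 were controls and 22746 were tested. The median signal of an array lay between 42.9 and 46.2, and between 39.8% and 40.3% of an array's probe sets read less than 16. Precision is limited by the number of arrays.

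In young leaf epidermis a complex of a MYB protein such as GL1, a bHLH protein such as GL3, EGL3 or ATMYC1 and the WD40 protein TTG1 turns on GL2 and other genes of trichome formation. The same complex turns on TRY and related MYB repressors, which move into neighbouring cells, compete with GL1 for the bHLH partner and keep those cells from becoming trichomes. Plants that lack TRY form trichomes in clusters. In the root epidermis this family of repressors favours root hairs, and the bHLH and WD40 proteins also work with other MYB proteins to switch on the late genes of anthocyanin synthesis.

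TRY signal was low in wild type and OsSAP11 seedlings and higher in those of the OsRLCK253 line. The wild type arrays read 23.7, 13.9 and 24.2, with a mean of 20.6 ± 5.85 (SD, n = 3). The OsSAP11 arrays read 25, 19.6 and 18.3, with a mean of 21 ± 3.57 (SD, n = 3). The OsRLCK253 arrays read 89.3, 107 and 111, with a mean of 102 ± 11.6 (SD, n = 3). All 3 OsRLCK253 arrays lay above all 6 others, and the wild type and OsSAP11 arrays overlapped. The order of the levels was therefore the OsRLCK253 line first, with the OsSAP11 line and wild type not separated beyond their spread. In RNA of whole seedlings, a change in the number of cells that express a gene and a change in its RNA per cell cannot be told apart.

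**Figure D1:**
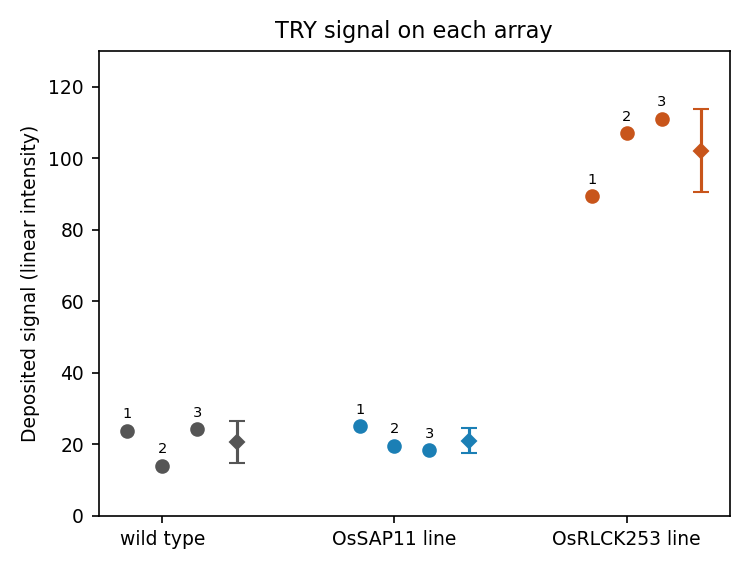
Deposited TRY signal (linear intensity, axis from 0) on each of the 9 arrays, with the replicate number above each point and the group mean ± SD (n = 3) as a diamond. The 3 OsRLCK253 arrays sit between 89.3 and 111, and the other 6 arrays sit between 13.9 and 25.

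The mean TRY signal of the OsRLCK253 line was 4.97 times that of wild type. To limit the weight of dim signals, differences were taken as log2(signal + 16), which makes them smaller for a gene as dim as TRY. On that scale the OsRLCK253 line was 1.70 ± 0.14 (SE of the model) above wild type, a 3.25-fold difference of the transformed values. The SD of 3 arrays on the same scale was 0.243 for wild type, 0.136 for OsSAP11 and 0.145 for OsRLCK253. The difference between the OsSAP11 line and wild type was 0.024 ± 0.14 (SE), and that of OsSAP11 minus OsRLCK253 was -1.68 ± 0.14 (SE). The 2 differences from wild type share the wild type arrays, whereas the difference between the lines does not use them.

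The lowest of the 9 TRY signals was that of wild type replicate 2. Without that array the OsRLCK253 line was 1.56 above wild type, and the OsSAP11 line differed from wild type by -0.12. Over the 9 ways of leaving out 1 array the OsRLCK253 difference from wild type ranged from 1.56 to 1.78, and the OsSAP11 difference from -0.12 to 0.10. Leaving out an array of neither group compared cannot change a difference. The size of the OsRLCK253 difference moved more with the number added to the signal, from 1.36 with 32 added to 2.29 with 1 added. The points for each way of processing stay in 3 separate columns in the plot of settings. Settings that change only the estimate of spread or the probe sets kept cannot move these points, so they repeat the reported value.

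**Figure D2:**
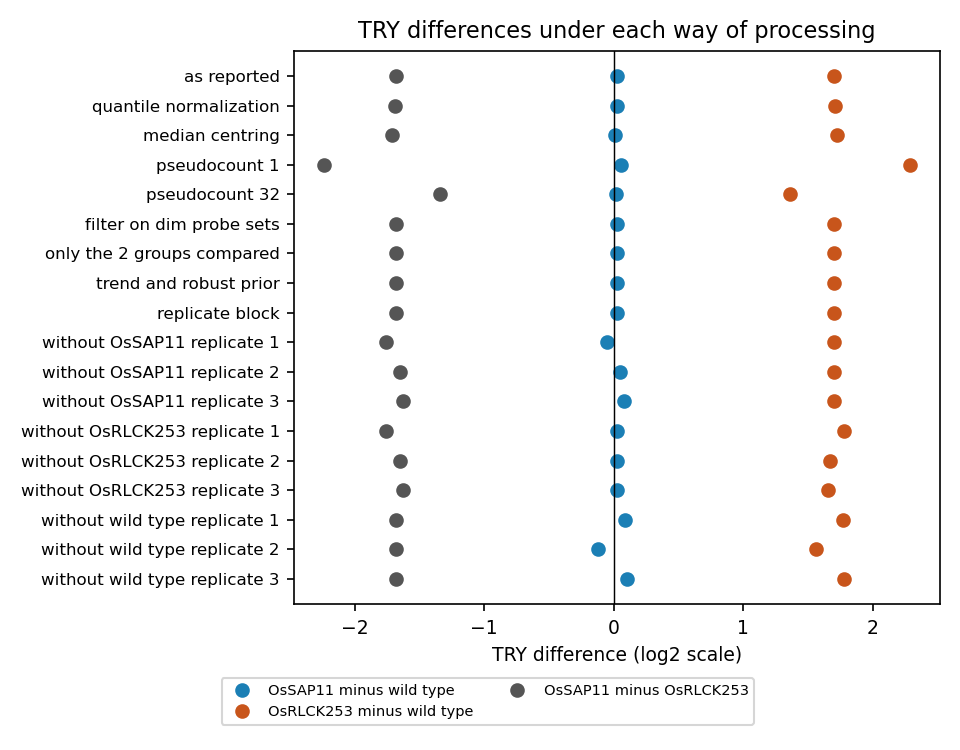
TRY difference on the log2 scale (x axis) for each of the 3 comparisons under each way of processing or with 1 array left out (y axis). The OsRLCK253 minus wild type points lie between 1.36 and 2.29, and the OsSAP11 minus wild type points lie between -0.12 and 0.10. Settings that leave the group means of TRY unchanged repeat the reported value.

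Some facts of the whole array stand beside these values. The 18 hybridisation control probe sets, which read transcripts added in fixed amounts, were all lower in each line than in wild type. They read only a few transcripts, so they are not 18 separate observations. Their median difference was -0.26 for the OsSAP11 line and -0.17 for the OsRLCK253 line, and its bearing on TRY was not tested. The median difference over all tested probe sets was -0.0021 and 0.014. All 3 OsRLCK253 arrays lay below the other 6 in 1224 probe sets. Non-overlap in the upward direction was more common, since 4964 of 22746 probe sets (21.8%) had all 3 OsRLCK253 arrays above the other 6. Of these, 37 (0.163%) were also at least 1 on the log2 scale above both other groups, and 5 (0.022%), TRY among them, were at least as far above both as TRY was. The other 4 probe sets are unnamed here. These shares describe where TRY stands and come from the same values that led to its choice.

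The gene patterns most like that of TRY were sought by Pearson's correlation over the 9 arrays, among 6201 probe sets that name 1 gene and whose highest group mean was above the median signal of 46.9. The points are 3 groups of replicate arrays, so the correlation mostly reports the step between the OsRLCK253 line and the rest, and it is given with no p. There were 44 probe sets with r above 0.9 and 103 with r below -0.9. A dim probe set could enter through a high OsRLCK253 mean alone, so the count above 0.9 depends in part on the step itself.

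The 5 highest correlations belonged to AT2G19340 (r = 0.974), AT3G56290 (0.970), AT2G27420 (0.967), AT2G43800 (0.965) and AT3G55960 (0.965). The tables used give these genes no symbol. AT2G19340 read 163, 141 and 135 in wild type, 138, 138 and 147 in the OsSAP11 line, and 332, 311 and 355 in the OsRLCK253 line. As for TRY, its wild type and OsSAP11 arrays overlapped and its OsRLCK253 arrays lay above both. AT2G27420 was dimmer than 16 on the first 6 arrays, from 7.4 to 11.4, and read 54.8, 50.1 and 43.9 in the OsRLCK253 line. It passed the limit of 46.9 only through its OsRLCK253 mean of 49.6, so its place here depends on that step. AT3G56290 lay between 297 and 299 in wild type and read 566, 713 and 883 in the OsRLCK253 line, while the OsSAP11 line, at 310 to 342, was just above wild type. The difference of the OsRLCK253 line from wild type was 1.10 for AT2G19340, 1.21 for AT3G56290, 1.41 for AT2G27420, 0.63 for AT2G43800 and 0.60 for AT3G55960, each smaller than that of TRY.

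The mirror image was seen in the 5 lowest correlations. AT3G02630 (r = -0.983) lay between 610 and 673 on the wild type and OsSAP11 arrays and read 442, 374 and 406 in the OsRLCK253 line. AT4G01130 (r = -0.975) read 233, 216 and 186 in wild type, 167, 179 and 159 in the OsSAP11 line, and 54.2, 39.1 and 37.9 in the OsRLCK253 line. This was the widest step of the 5, with a log2 difference from wild type of -1.93. The other 3 were AT1G55000 (-0.976), AT3G04550 (-0.973) and AT5G62720 (-0.971), with log2 differences of -0.35, -1.13 and -1.40. With any 1 array left out, the correlations of the 10 genes lay between 0.952 and 0.980 or between -0.991 and -0.960. Of the 10 genes, 7 were still among the 5 at each end with quantile normalization, with median centring or with 1 added to each signal, and all 10 with 32 added.

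**Figure D3:**
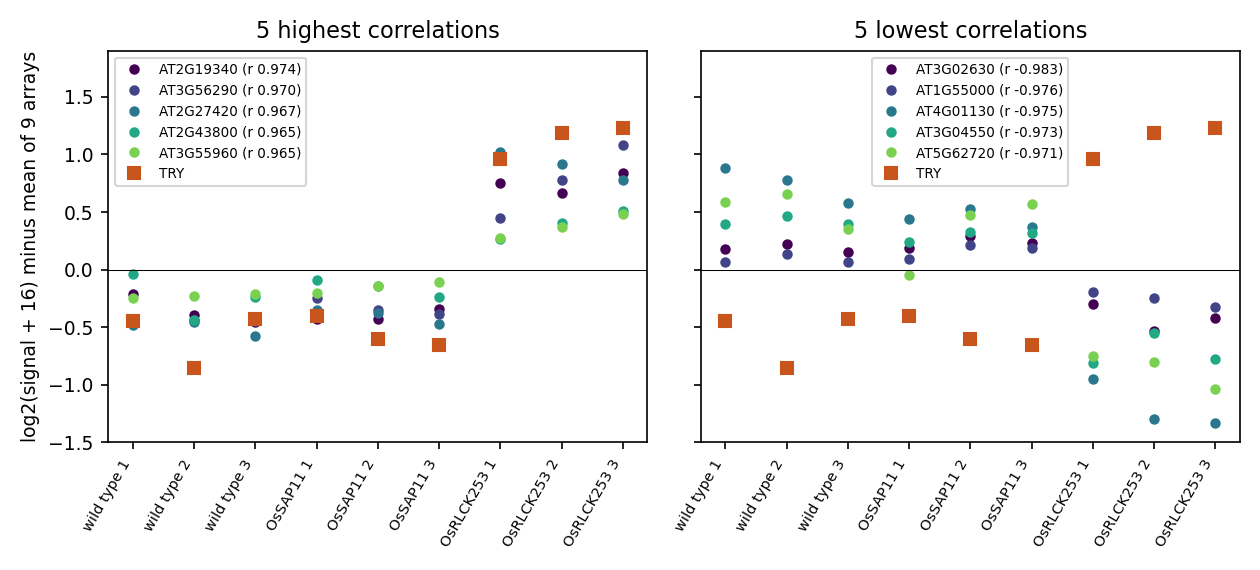
Per-array values of TRY (squares) and of the genes with the 5 highest (left) and 5 lowest (right) correlations with it, as log2(signal + 16) minus the mean of the 9 arrays. The step lies between the OsRLCK253 arrays and the other 6 in every gene shown, upward on the left and downward on the right.

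The next question was whether genes that act with TRY differed between the lines and wild type. The array was compared over 8 lists with 105 genes of trichome formation, root hairs and the shared anthocyanin outputs, of which 22 genes, TRY included, had a probe set naming them. The other 21 were tested in a fit over all 22746 probe sets with limma, with p-values adjusted by the Benjamini-Hochberg method over all of them and a call at an adjusted p under 0.05. The lists were chosen with earlier results of these data known, so their p-values and counts are not independent of that choice. In the OsSAP11 line 6 were higher than in wild type and 1 was lower, where 7.44% of all probe sets were called higher and 5.17% lower. In the OsRLCK253 line 4 were higher and 2 lower, where 6.95% of all probe sets were called higher and 6.85% lower. Of the higher calls, 3 in each line came from the anthocyanin list alone. The median log2 change of the 21 was 0.04 for OsSAP11 and 0.09 for OsRLCK253. Between the lines limma called 0 of the 21, against 5.21% of all probe sets, and 8 of the 21 had an unadjusted p under 0.05.

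Of 8 listed MYB repressors of the TRY type, TRY was the 1 gene that a probe set named, so its nearest relatives were not analysed here. Of 10 listed activators the measured gene was ATMYC1, a bHLH partner of GL1. It read 66.7, 57.1 and 75.6 in wild type, 75.9, 71.1 and 58.3 in the OsSAP11 line, and 93.5, 75.4 and 72.4 in the OsRLCK253 line. The 3 groups overlapped, and the log2 change was 0.035 for OsSAP11 and 0.23 for OsRLCK253 (adjusted p = 0.965 and 0.272 by limma).

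SIM, which stops cell division and promotes endoreplication in developing trichomes and is a target of the activator complex, was the measured gene among 8 listed targets and endoreplication genes. It read 156, 153 and 134 in wild type, 95, 86.4 and 78.5 in the OsSAP11 line, and 106, 86.7 and 127 in the OsRLCK253 line. Both lines lay below wild type without overlap. SIM fell by 0.67 on the log2 scale in the OsSAP11 line (SE 0.127, adjusted p = 0.0173 by limma). In the OsRLCK253 line the log2 change of -0.43 did not pass (adjusted p = 0.0762). It did pass without OsRLCK253 replicate 3 (adjusted p = 0.0318) and with a filter on mean signal above 32 (adjusted p = 0.0252). The OsSAP11 call was lost without OsSAP11 replicate 2 or 3 or wild type replicate 1 or 2, with adjusted p from 0.0518 to 0.0633.

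Among 22 listed upstream regulators 3 were measured. GIS, a zinc-finger activator of trichome initiation, read 78.4, 76.6 and 66.4 in wild type, 168, 179 and 142 in the OsSAP11 line, and 65.7, 135 and 112 in the OsRLCK253 line. It rose by 0.99 ± 0.221 (SE) in the OsSAP11 line (adjusted p = 0.0308 by limma), with no overlap between the groups. In the OsRLCK253 line replicate 1 was as low as wild type, and the change of 0.38 did not pass (adjusted p = 0.291). Without that replicate the adjusted p in the OsRLCK253 line was 0.0238. The OsSAP11 call was lost when any of the 3 wild type or 3 OsSAP11 arrays was left out, with adjusted p from 0.0601 to 0.0983. GEM, a regulator of GL2, read from 105 to 151 over the 9 arrays and its groups overlapped. AT1G68360 stayed between 8.37 and 10.7.

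Gibberellin promotes trichome initiation, and 2 genes of its signalling were measured among 12 listed hormone genes. GID1A, a gibberellin receptor gene, lay between 277 and 284 in wild type and between 242 and 283 in the OsSAP11 line, and read 214, 159 and 192 in the OsRLCK253 line. It fell by 0.55 in the OsRLCK253 line (SE 0.1, adjusted p = 0.014 by limma), with all 3 arrays below wild type. The adjusted p was 0.0509 without wild type replicate 1. In the OsSAP11 line the change was -0.10 (adjusted p = 0.674), and the difference between the lines, 0.44, did not pass (adjusted p = 0.0563). That difference passed under 5 of 17 alternatives, among them without OsRLCK253 replicate 1 (adjusted p = 0.0333). SPY, a repressor of gibberellin responses, rose by 0.35 ± 0.0702 (SE) in the OsSAP11 line (adjusted p = 0.022), from 189 ± 12.5 (SD) to 244 ± 22.2. Its change in the OsRLCK253 line was 0.11 (adjusted p = 0.317). The OsSAP11 call of SPY was lost without OsSAP11 replicate 2 or 3 or wild type replicate 2 or 3, with adjusted p from 0.0626 to 0.075, and with only the 2 groups in the fit (adjusted p = 0.0688).

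Of 18 listed genes of trichome growth, branching and wall, 6 were measured. AT5G06700, the TRICHOME BIREFRINGENCE gene that is needed for cellulose in the trichome wall, read 609, 424 and 550 in wild type, 367, 362 and 390 in the OsSAP11 line, and 359, 369 and 286 in the OsRLCK253 line. Both lines lay below wild type without overlap. It fell by 0.61 in the OsRLCK253 line (SE 0.146, adjusted p = 0.0364 by limma), and the change of -0.47 in the OsSAP11 line did not pass (adjusted p = 0.0924). The OsRLCK253 call was lost without any of 8 of the 9 arrays, the exception being wild type replicate 2, with adjusted p from 0.0579 to 0.106, and with only the 2 groups in the fit (adjusted p = 0.111). Without wild type replicate 2 the OsSAP11 change passed, with an adjusted p of 0.027, as it did with the filter on mean signal (adjusted p = 0.0261).

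SPK1, a guanine nucleotide exchange factor gene of cell shape and actin, rose by 0.33 ± 0.0658 (SE) in the OsSAP11 line (adjusted p = 0.02 by limma), from 70.7 ± 4.53 (SD) to 93.2 ± 3.93. Its change in the OsRLCK253 line was 0.23 (adjusted p = 0.0635). That change passed without OsRLCK253 replicate 3 (adjusted p = 0.0455), with median centring (adjusted p = 0.0407) and with replicate number as a block (adjusted p = 0.0154). The OsSAP11 call was lost without OsSAP11 replicate 1 or 2 or wild type replicate 1 or 3, with adjusted p from 0.0621 to 0.0723, and with the trend and robust prior (adjusted p = 0.0506). The branching genes AN and BLT and the actin-nucleation genes CRK and BRK1 had log2 changes from -0.31 to 0.09 over both lines and did not pass.

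Root hair genes were the next list, since the repressors favour root hairs in the root, and 3 of its 14 genes were measured. The expansin gene EXPA7, which is expressed in root hair cells, read 8.5, 8.11 and 5.41 in wild type, 8.3, 8.54 and 15.5 in the OsSAP11 line, and 27.6, 13.9 and 29 in the OsRLCK253 line. It rose by 0.74 ± 0.18 (SE) in the OsRLCK253 line (adjusted p = 0.0389 by limma), with all 3 arrays above wild type. Its wild type signals were below the 16 added before the logarithm, so the size of the change depends on that number. The call was lost without any of 7 of the 9 arrays, the exceptions being OsSAP11 replicate 3 and OsRLCK253 replicate 2, with adjusted p from 0.0618 to 0.113, and with only the 2 groups in the fit (adjusted p = 0.0828).

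EXPA18, another root hair expansin gene, read 25.3, 38.4 and 27.2 in wild type and 61.4, 35.5 and 75.5 in the OsRLCK253 line, and its change of 0.64 did not pass (adjusted p = 0.146). On both expansin genes OsRLCK253 replicate 2 was the lowest array of its group, whereas on TRY it was the middle one. JKD, a zinc-finger gene of root epidermal patterning, had changes of 0.22 in OsSAP11 and -0.22 in OsRLCK253 seedlings that did not pass (adjusted p = 0.424 and 0.313). The root marker PYK10, a beta-glucosidase gene, had a change of 0.23 in the OsRLCK253 line (adjusted p = 0.344), with 6119 to 7772 in wild type and 6499 to 9038 in the OsRLCK253 line. The part of root tissue in the expansin values was not tested.

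**Figure D4:**
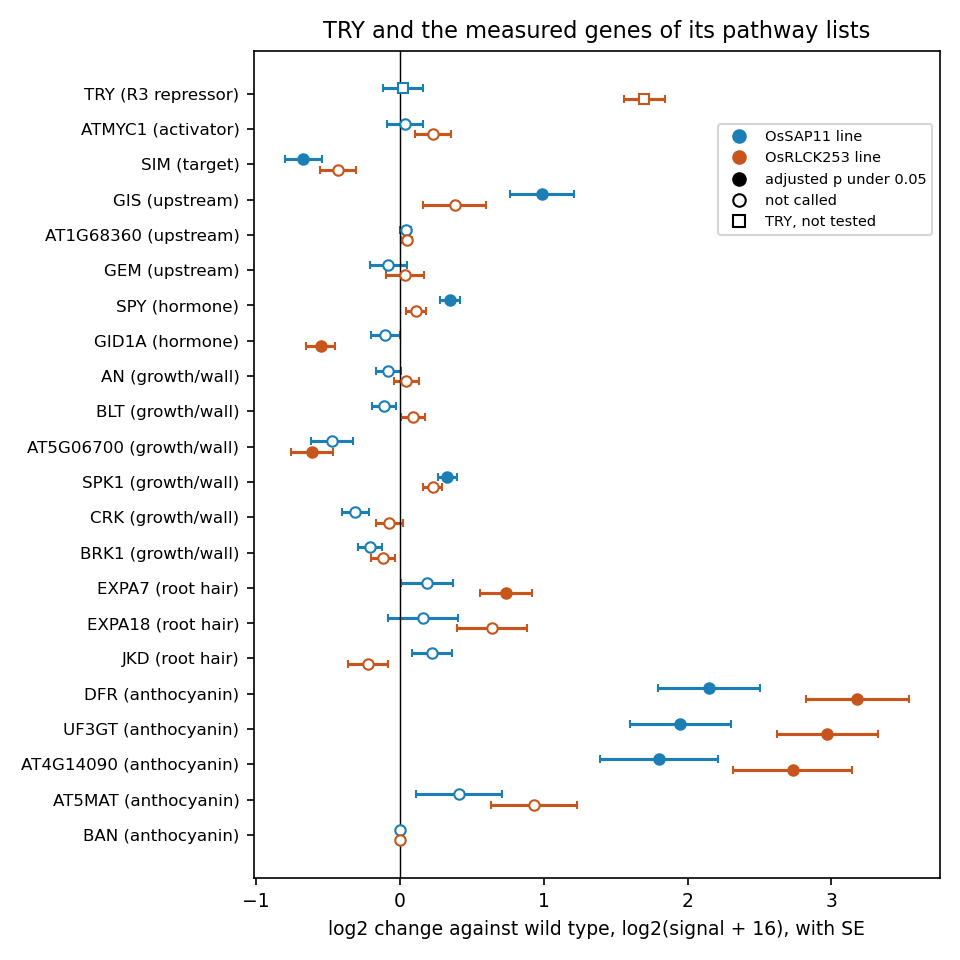
Log2 change against wild type (x axis, with SE) of TRY and of the 21 other measured genes of the 8 lists, in the OsSAP11 line (blue) and the OsRLCK253 line (orange), with filled points where the adjusted p was under 0.05. TRY (open squares, not tested) stood at 0.024 and 1.70, while DFR, UF3GT and AT4G14090 were higher in both lines.

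The anthocyanin list differed from TRY in the OsSAP11 line, since its called genes were higher in both lines. Like TRY, DFR and UF3GT had all OsRLCK253 arrays above the other 6 and at least 1 on the log2 scale above both groups. Of 13 listed genes 5 were measured, and 3 rose in each line, where 7.44% and 6.95% of all probe sets were called higher. The median log2 change of the 5 was 1.80 for OsSAP11 and 2.73 for OsRLCK253. AT5MAT, another gene of the list, lay above wild type without overlap in both lines but did not pass (adjusted p = 0.521 and 0.0947 by limma). DFR, the dihydroflavonol reductase gene, read 50.6, 109 and 47.4 in wild type, 490, 332 and 245 in the OsSAP11 line, and 805, 840 and 545 in the OsRLCK253 line. The 3 groups did not overlap, and the changes from wild type were 2.15 ± 0.356 and 3.18 ± 0.356 (SE, adjusted p = 0.0108 and 0.00216 by limma). UF3GT and AT4G14090, both glycosyltransferase genes of anthocyanins, rose by 1.95 and 1.80 in OsSAP11 seedlings and by 2.97 and 2.73 in OsRLCK253 seedlings. The OsSAP11 call of UF3GT was lost without OsSAP11 replicate 1 or 2 or wild type replicate 1, with adjusted p from 0.0514 to 0.0522. That of AT4G14090 was lost without OsSAP11 replicate 1 or 2, OsRLCK253 replicate 1 or wild type replicate 1 or 3, with adjusted p from 0.0571 to 0.109, and with only the 2 groups in the fit (adjusted p = 0.076).

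Between the lines the differences of these 3 genes, from -1.03 to -0.93 for the OsSAP11 line minus the OsRLCK253 line, did not pass (adjusted p from 0.139 to 0.204). With the filter on dim probe sets those of DFR and UF3GT passed (adjusted p = 0.0324 and 0.0332). BAN, a gene of seed coat tannins, was between 3.69 and 3.84 on all 9 arrays. On wild type replicate 2, where TRY was lowest, DFR, UF3GT and AT4G14090 were each at their highest wild type signal, 109, 47.4 and 64.1. This is 1 array, picked after its values were seen, with TRY under 16. Across the groups, the mean signals of TRY and of these genes were all highest in the OsRLCK253 line, and no relation was tested.

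TRY lies next to SPCH, a bHLH gene that starts the stomatal lineage in the same epidermis, in the gene order of chromosome 5. SPCH read 32.9, 29.3 and 38 in wild type, 38.5, 44.9 and 37.7 in the OsSAP11 line, and 49.6, 38.3 and 48.1 in the OsRLCK253 line. Its 3 OsRLCK253 arrays lay above wild type, by 38.3 against 38 at the closest, and the change of 0.31 ± 0.0977 (SE) did not pass (adjusted p = 0.0891 by limma). Without OsRLCK253 replicate 2 the adjusted p was 0.0439. On the other side SWEET3, a sugar transporter gene, was between 4.45 and 4.82 on all arrays, far under 16.

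Of the 6 measured genes nearest to TRY, 3 on each side, limma called 0 in either line, and 2 had an unadjusted p under 0.05 for OsSAP11 and 1 for OsRLCK253. The other 4 were AT5G53140, AT5G53150, AT5G53220 and AT5G53240, with log2 changes from -0.0025 to 0.38 over both lines. Of all probe sets 7.44% were called higher and 5.17% lower for OsSAP11, and 6.95% and 6.85% for OsRLCK253. A count of 0 among 6 therefore does not set these neighbours apart. Over 20 measured genes, 10 on each side, the median change in the OsRLCK253 line was 0.052. There 1 of the 20 was called, the pectin methylesterase gene PMEPCRF, which rose by 0.90 in OsSAP11 and 1.13 in OsRLCK253 seedlings (adjusted p = 0.003 and 0.000928). This is 1 of 20 called higher, where 6.95% of all probe sets were.

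**Figure D5:**
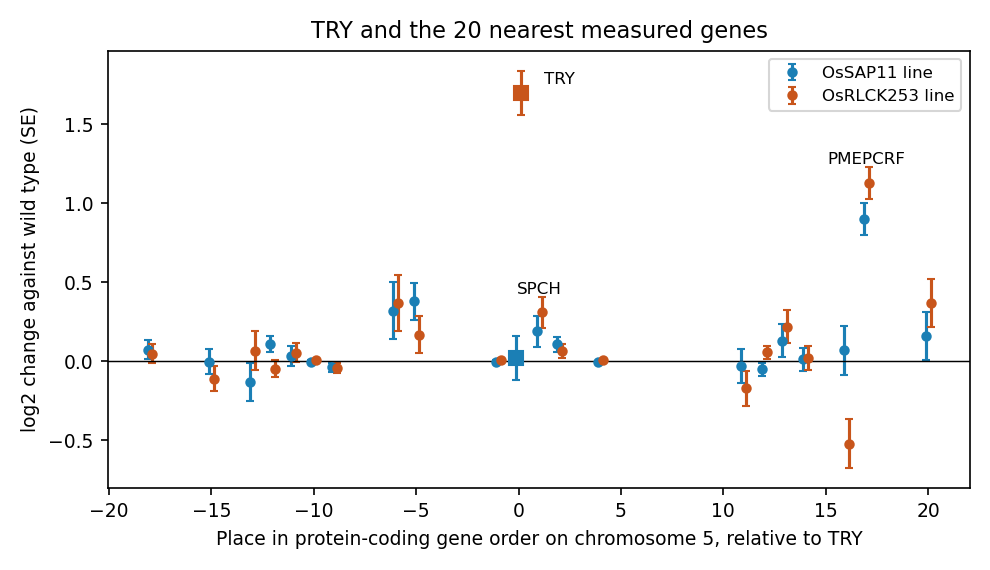
Log2 change against wild type (y axis, with SE) of TRY (squares) and of the 20 nearest measured genes (circles) by their place in the protein-coding gene order of chromosome 5 (x axis), in the OsSAP11 line (blue) and the OsRLCK253 line (orange). TRY in the OsRLCK253 line stands at 1.70 and SPCH beside it at 0.31.

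Markers of other cells of the seedling were also read. Of 34 listed markers 5 were measured, and limma called 0 of them in either line, with 0 and 1 at an unadjusted p under 0.05 in the OsSAP11 and OsRLCK253 lines. Of all probe sets 7.44% were called higher and 5.17% lower for OsSAP11, and 6.95% and 6.85% for OsRLCK253, so a count of 0 among 5 does not set the markers apart. FMA, which drives guard cell formation, was between 37.2 and 50.2 on all arrays, and MUTE, which acts just before it, was between 5.47 and 6.77. The seed marker AT3G15670 lay between 4.84 and 5.69. The listed flower markers were not analysed here.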

How the data were processed

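The authors deposited linear intensities, with 1 value for each probe set on each array. GCOS is named in the submitters' processing notes, and how signals were summarised, background-corrected and scaled is not given in the sources used here. Array medians differed by 0.0777 on the log2 scale, so the deposited values were used as they are. Of 22746 tested probe sets 13513 name 1 gene, 503 name several and 8730 are unnamed here. Names and gene order came from RefSeq's table for TAIR10.1, which held 13436 of the 13513.

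Signals were transformed as log2(signal + 16) and fitted with 1 mean per group over all 9 arrays in limma 3.58.1 (R 4.3.3). The procedure was tested on simulated data. TRY and the gene lists were chosen with earlier results of these data known. Named list genes are all measured repressors and activators and, per other list, up to 4 of the largest called changes, or 2 where none was called. The rule also names the 3 measured genes nearest to TRY on each side and the 5 probe sets at each end of the correlation with TRY. Other genes in the text were chosen after their values were seen.

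Replicate numbers were not used to pair the arrays in the main fit. Deviations of same-numbered arrays from their group means correlated from -0.127 to 0.181, and those of differently numbered arrays from -0.251 to 0.167. These ranges cannot settle whether arrays were paired, since deviations from a mean of 3 arrays are not independent. The labels call the replicates biological and name no separate plates, so p-values measure the spread between these samples. Alternatives were quantile normalization, median centring, adding 1 or 32, a filter on mean signal above 32, fits of 2 groups, a trend with a robust prior, a replicate block and leaving out each array.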

Additional observations from a re-analysis of the deposited data

How the results depend on the processing

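The TRY difference of the OsRLCK253 line from wild type was 2.29 with 1 added to each signal and 1.36 with 32 added, and that of the OsSAP11 line minus the OsRLCK253 line was -2.24 and -1.34. Leaving out 1 array gave 1.56 to 1.78 for the OsRLCK253 line, -0.12 to 0.10 for the OsSAP11 line, and -1.76 to -1.63 between the lines. As each group holds the same replicate numbers, the replicate block could not change the 3 TRY differences, which stayed at 1.70, 0.024 and -1.68. Probe sets called numbered 2869 in the OsSAP11 line (1827 to 2875 without 1 array), 3138 in the OsRLCK253 line (2040 to 3387) and 1185 between the lines (449 to 1388). Counts over 1.5 times lower came without OsSAP11 replicate 1 or 2 or wild type replicate 1 (1863, 1887 and 1827), then by leaving out wild type replicate 1 (2040), and without OsSAP11 replicate 1, 2 or 3 (564, 485 and 449), for the 3 comparisons in that order. Between the lines the count was 1910 with the filter on dim probe sets, 1809 with the trend and robust prior, 609 with only the 2 groups and 639 with the replicate block. The cause was not tested. Of the 13 calls of named genes 4 held under every alternative and 9 were lost under at least 1. Those 4 are DFR in both lines and UF3GT and AT4G14090 in the OsRLCK253 line. The replicate block ended the calls of SIM, GIS and SPY in the OsSAP11 line (adjusted p = 0.0535, 0.0605 and 0.0725) and of GID1A, AT5G06700 and EXPA7 in the OsRLCK253 line (adjusted p = 0.052, 0.0798 and 0.0691). SPK1 in the OsRLCK253 line and AT5G53150 in the OsSAP11 line passed with it (adjusted p = 0.0154 and 0.0237). Of 47 results not called, 12 passed under at least 1 alternative. TRY in wild type is close to the 16 added to each signal, so the size of its difference depends on that number.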

Other observations

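The 37 probe sets with all OsRLCK253 arrays above the other 6, and at least 1 on the log2 scale above both groups, include 18 that name 1 gene. TRY, DFR and UF3GT are among them. The genes read out below were chosen after their values were seen, so they are given with no test. LHCB4.3, a gene of the light-harvesting antenna of photosystem II, read 535, 403 and 502 in wild type, 665, 457 and 591 in the OsSAP11 line, and 1586, 1508 and 1034 in the OsRLCK253 line. AFR, an F-box gene of phytochrome A signalling, read 78.8, 119 and 71.4 in wild type, 255, 240 and 218 in the OsSAP11 line, and 378, 544 and 643 in the OsRLCK253 line. Unlike TRY, AFR was also above wild type in the OsSAP11 line. AT5G14650 was closer to TRY in signal level, with 16.3, 23.1 and 47.3 in wild type, 11.5, 16.8 and 19 in the OsSAP11 line, and 83.5, 82.2 and 91.4 in the OsRLCK253 line. Its log2 difference of the OsSAP11 line from wild type was -0.45, against 0.024 for TRY.

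In the opposite direction 67 probe sets had all OsRLCK253 arrays below the other 6 and at least 1 on the log2 scale below both groups, and 31 of them name 1 gene. Among these CHL, a chloroplast lipocalin gene, read 2313, 2193 and 2293 in wild type, 1799, 1884 and 1863 in the OsSAP11 line, and 860, 947 and 649 in the OsRLCK253 line. DPE1, a plastid enzyme gene of starch breakdown, read 483, 496 and 606 in wild type, 425, 472 and 426 in the OsSAP11 line, and 201, 245 and 189 in the OsRLCK253 line. Unlike TRY, CHL and DPE1 also differed from wild type without overlap in the OsSAP11 line, where both were lower. The widest step of the 31 was that of COR27, at least 2.39 below both groups.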
